A study of Mus musculus with 6 samples.

Results

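The genes described here encode the proteasome, the protease that degrades ubiquitin-tagged proteins, together with its regulators and assembly factors. They were taken as the rows of the deposited gene tables whose symbol starts with Psm, a letter from a to g and a number. Of 56 matching names, 5 pseudogenes and the immunoproteasome genes Psmb8 and Psmb9 were left out, which gave 49 genes of 57508 in the tables. They comprise 17 genes of the 20S core (8 alpha and 9 beta subunits), 17 of the 19S particle (6 ATPases and 11 other subunits), 6 regulators of other kinds and 7 assembly chaperones. The remaining 2 names, Psmc3ip and Psme3ip1, belong to partners of a subunit and not to the proteasome itself.

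RNA was sequenced from KPC1199, a mouse line labelled as pancreatic tumour cells, in 3 libraries with the genotype WT and 3 with the genotype ACSL5 knockdown. Acsl5 encodes an enzyme that joins long-chain fatty acids to coenzyme A. The WT libraries carry siACSL5_CY3 in their names and the knockdown libraries siACSL5_2260, and the titles of the latter say KO. The labels explain neither suffix, state no time or dose, and do not say whether the libraries of a group are separate cultures, so that p-values measure the spread between these libraries, which may be technical. All 6 libraries come from a single cell line.

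The core of the proteasome is a barrel of stacked rings, with alpha subunits on the outside and beta subunits, which carry the proteolytic sites, on the inside. The 19S particle caps the barrel, binds and removes ubiquitin chains and uses ATP to unfold and feed in the substrate. The 11S caps open the barrel without ubiquitin or ATP, and dedicated chaperones build both the core and the base of the 19S particle. In mammalian cells the transcription factor NRF1, the product of Nfe2l1, raises most subunit genes together when proteasome activity falls.

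Library totals lay between 21794244 and 29996194 expected counts (estimated read counts per gene). Acsl5 was at 342.4, 265.2 and 270.2 CPM (counts scaled to library size) in the WT and at 49.8, 55.6 and 57.2 CPM in the knockdown libraries, where 3 values in a row here and later follow the replicate numbers. All 3 knockdown libraries were below all WT libraries (two-sided exact permutation test p = 0.1, the smallest that 3 against 3 allow). The epithelial markers Krt8, Krt18, Krt19, Krt7, Epcam, Cdh1 and Sox9 were all detected, with a summed level of 7889.8 to 9067 TPM (a level per transcript length). Of 5 fibroblast, 5 leukocyte, 3 endothelial and 5 acinar markers, 2, 1, 0 and 1 exceeded 1 TPM in any library. These were Col1a1 and Pdgfrb (up to 3.16 and 6.85 TPM), Cd68 (up to 8.49) and Cela1 (up to 14.7). Lum, Cd3e, Cdh5, Ctrb1 and Prss1 were at 0 in all libraries. The summed fibroblast markers were at 2.05 to 6.72 TPM in WT and 8.32 to 9.52 in knockdown libraries, leukocyte markers at 3.42 to 6.53 and 7.19 to 8.59, endothelial markers at 0.08 to 0.11 and 0.12, and acinar markers at 6.26 to 9.94 and 12.4 to 14.7. The part of these markers in the results was not tested.

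In the proteasome genes, WT replicate 1 differed from the 5 remaining libraries. Relative to the mean of WT replicates 2 and 3, on a log2(CPM + 1) scale, it was higher by a median of 1.47 in the 15 core genes that passed the filter on low counts, 0.95 in the 17 genes of the 19S particle and 1.03 in the 7 assembly chaperones. The median over all 15152 genes tested was -0.03. Every one of the 15 core genes was higher in it, and 2 genes of the 19S particle, Psmd2 and Psmd11, were not. Psme4, at 6491 bases the longest member, was lower in it by 0.33 (log2 difference -0.33), as were Psme3, Psmf1 and Psme2b. The core genes had a median length of 1165 bases, those of the 19S particle 1626 and all genes tested 2694. Across the 47 members tested, the difference had a Spearman correlation of -0.57 with gene length, a description over genes that share the same libraries. Gene fold changes below are without this library unless 6 libraries are named, its level is given beside the others, and the values over 6 libraries follow for each group.

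**Figure D1:**
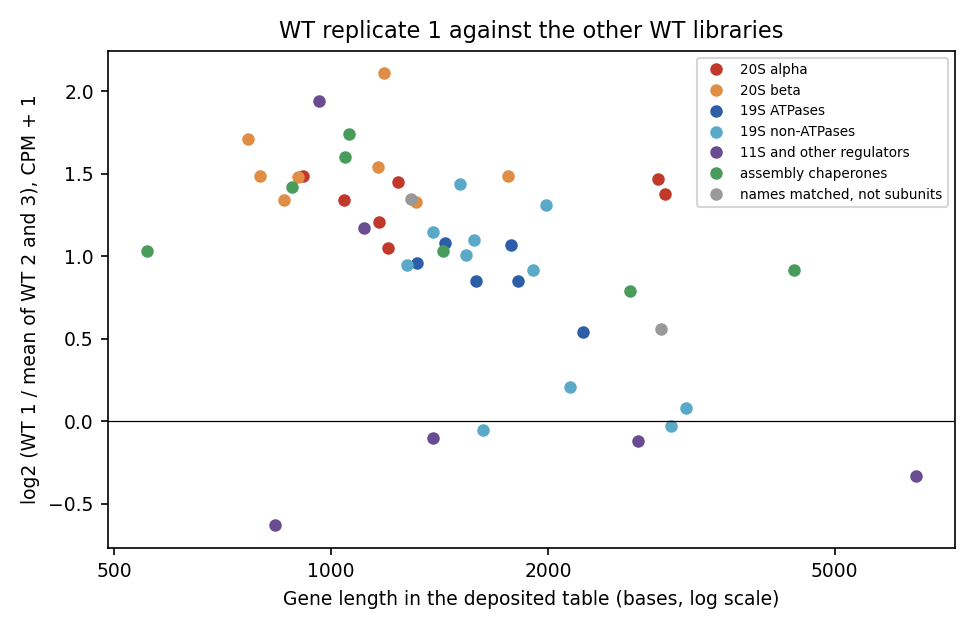
Each point is 1 of the 47 proteasome genes tested, with its length in bases on a log axis and the log2 ratio of CPM + 1 in WT replicate 1 to the mean of WT replicates 2 and 3 on the y axis, coloured by group. The core genes sit between 1.05 and 2.11, and the longest gene, Psme4, is at -0.33. Psma2 and Psma3, core genes of 2911 and 2846 bases, are at 1.38 and 1.47. The short Psme2b, of 837 bases, is at -0.63.

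Without WT replicate 1, most subunit genes of the proteasome had modestly higher estimates in knockdown cells, with 12 of 17 genes of the 19S particle and 6 of 15 core genes called higher and 1 of each called lower. The difference between these groups of genes was not tested. Of 47 genes tested, 22 rose (46.8%) and 4 fell (8.51%), against 16.3% higher and 18.0% lower among all 15152 genes tested (edgeR quasi-likelihood test, adjusted p below 0.05 over all genes). The members' median log2 fold change, knockdown minus WT, was 0.20, and that of all genes tested was -0.01. In terms of levels, all 3 knockdown libraries were above both WT libraries in 29 of the 47 members and below both in 5, where 30.4% and 29.3% of all genes were so placed. Psma8 and Psmb11, the testis and thymus forms of core subunits, were not tested: Psma8 had 0 CPM in all libraries and Psmb11 at most 0.126. The count of 22 became 14, and the count of 4 became 2, when WT replicate 3 was also left out, where the lone WT library takes its spread from the knockdown group. Limma on log2(TPM + 1) values gave 17 higher and 2 lower. Calls of Psma2, Psmd2, Psmd6, Psmd13, Psmg4 and Psme3ip1 were lost without either WT replicate 2 or 3, and those of Psmc4, Psmd9, Psmd12 and Psme4 without WT replicate 3, with adjusted p between 0.0538 and 0.222.

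With all 6 libraries, no member was called in edgeR, and its fold changes of the core were negative. EdgeR called 0 of 47 members (0% of 14679 genes), and 3 members had an unadjusted p below 0.05 (16.0% of all genes), namely Psma7, Psmd3 and Psmd11. DESeq2 called 1 member, Psmd11 (adjusted p = 0.0452), and 2.72% of its 26595 genes. Limma-voom with a quality weight for each library called 23 members higher and 3 lower, against 20.6% and 19.7% of all genes. The median log2 fold change of the core was -0.44 over 6 libraries and 0.19 without WT replicate 1, and that of the 19S particle was -0.12 and 0.25. All 15 core genes had a negative value in edgeR over 6 libraries, but this did not hold under every setting. With the length trend removed 7 of 15 were positive (median -0.01), with length and GC trends removed 10 (0.04), on log2(TPM + 1) values 9 (0.05) and with quality weights 14 (0.24). All 3 knockdown libraries lay above all 3 WT libraries in 5 members (Psmd2, Psmd3, Psmd11, Psme3 and Psmf1) and below them in 4 (Psma7, Psmd13, Psmd10 and Psmg1), placements held by 18.7% and 15.6% of all genes.

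**Figure D2:**
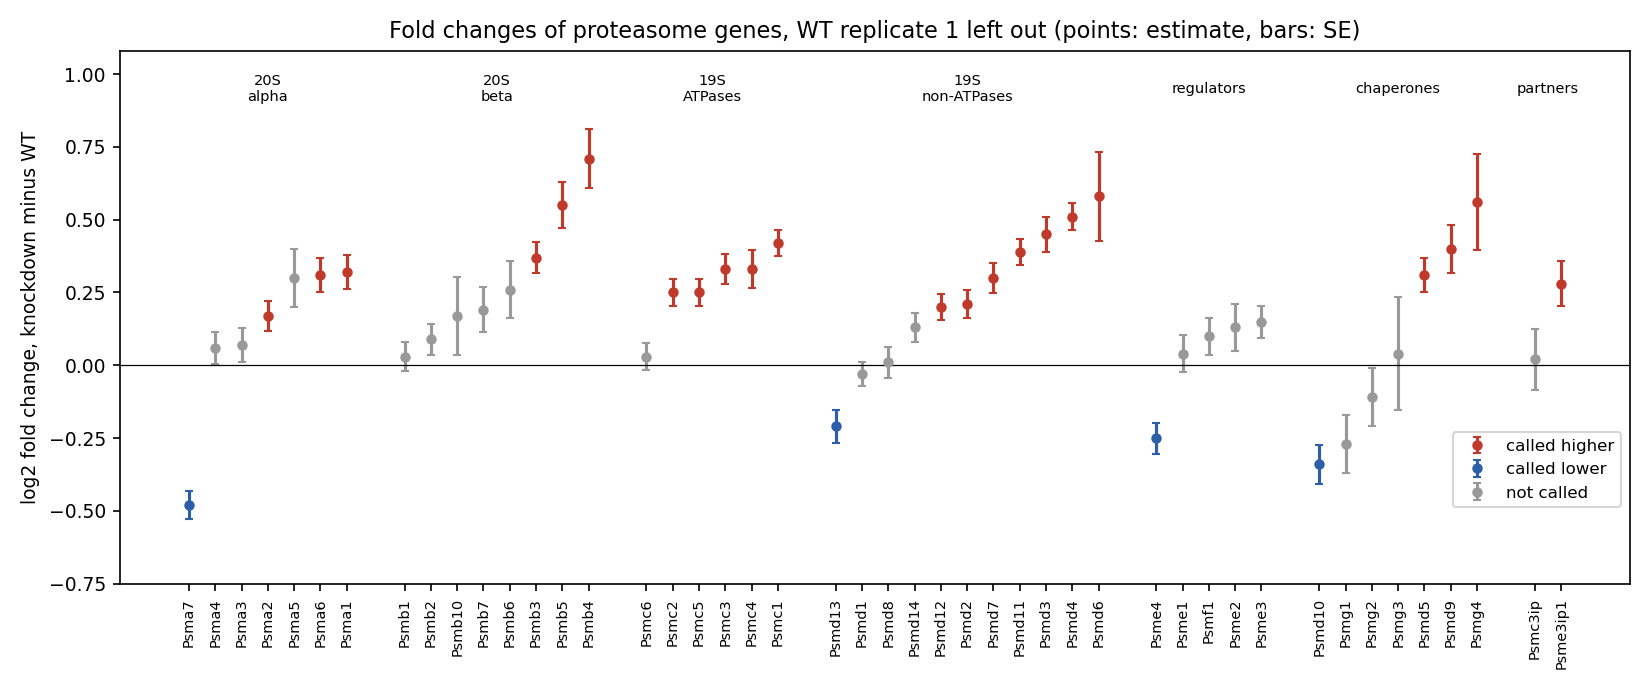
Points are log2 fold changes (knockdown minus WT) of 46 proteasome genes without WT replicate 1, bars are standard errors, and colours mark the edgeR calls. Psme2b, which is below 2 CPM, is left out. Of the 6 ATPase genes 5 are called higher, while Psma7 at -0.48 is the lowest member.

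Summed in TPM, transcripts of the 19S particle separated the groups in all 6 libraries. The 17 genes together stood at 3281, 3349.9 and 3368 TPM in the WT libraries and at 4207, 4226 and 4178 TPM in the knockdown libraries. Each knockdown library was thus above each WT library, WT replicate 1 included. Most genes were higher on this scale once WT replicate 1 was included: 10047 of 13883 genes tested had a positive difference on log2(TPM + 1), with a median of 0.26, against a median of 0.27 for the 19S genes. The order also depended on the unit: the mean log2(CPM + 1) of the same genes was 8.34 in WT replicate 1, 7.54 and 7.55 in the other WT libraries and 7.80 to 7.81 in knockdown libraries. The 17 core genes summed to 6327, 4026 and 4083 TPM in the WT and 4584, 4899 and 4770.3 TPM in the knockdown libraries, so that WT replicate 1 was the highest and the other WT libraries the lowest. The ratio of the core sum to the 19S sum was 1.93 in WT replicate 1, up to 1.21 in the other WT libraries, and 1.09, 1.16 and 1.14 in the knockdown libraries. Core and 19S genes together took 0.738% and 0.745% of all TPM in WT replicates 2 and 3, 0.961% in WT replicate 1 and 0.879% to 0.912% in knockdown libraries. These sums are given without a test, and in bulk RNA fewer cells of a kind and less RNA per cell cannot be told apart.

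**Figure D3:**
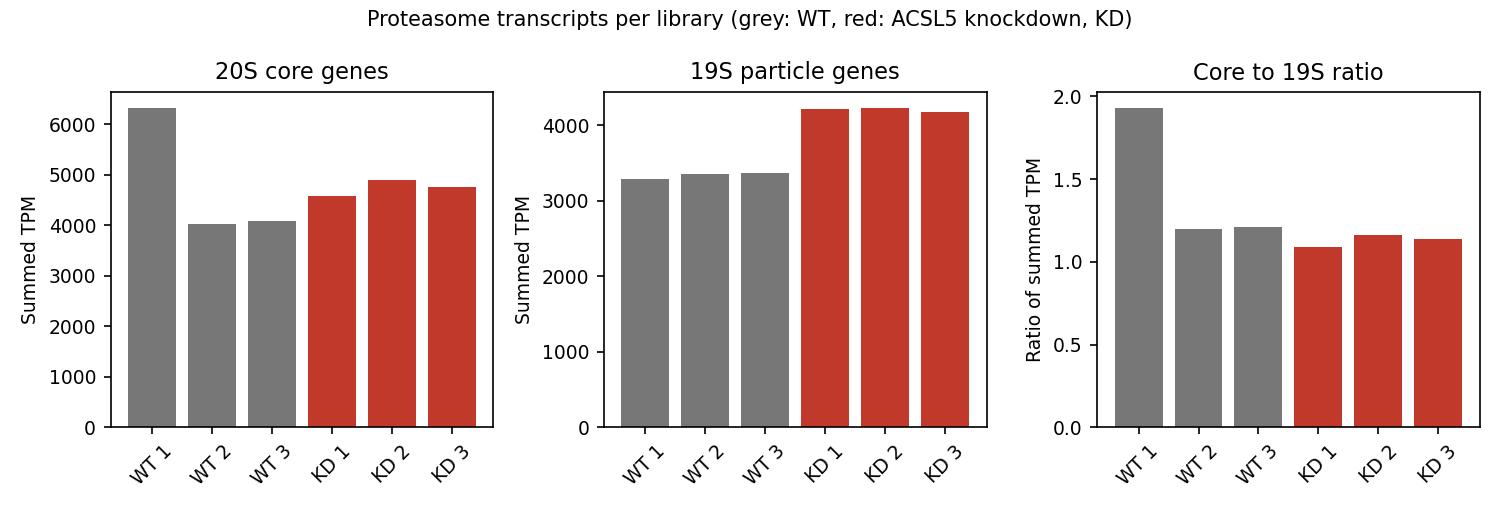
Bars give, per library, the summed TPM of the 17 core genes and of the 17 genes of the 19S particle, and the ratio of these sums. The 3 knockdown libraries (4178 to 4226 TPM) exceed all WT libraries (3281 to 3368) in the 19S sum, and WT replicate 1 stands apart in the core sum and the ratio.

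Among the alpha subunits, which form the outer rings and gate the barrel, 3 of 7 tested rose and 1 fell without WT replicate 1. Their median log2 fold change was 0.17, and 16.3% of all genes tested rose and 18.0% fell. Psma1 was at 144.4 and 149.6 CPM in WT replicates 2 and 3, 305.8 in WT replicate 1, and 173.9, 194.5 and 186.4 in the knockdown libraries. The log2 fold change was 0.32 (SE 0.0577, adjusted p = 0.00197). Psma6 was at 150.6 and 154.4 CPM in WT replicates 2 and 3, 386.8 in WT replicate 1, and 178.5, 193.7 and 201.3 in knockdown cells, a log2 fold change of 0.31. In both genes the knockdown libraries lay above WT replicates 2 and 3 and below WT replicate 1. Psma2 was at 111.6 and 116.0 CPM in WT replicates 2 and 3, 298.8 in WT replicate 1, and 125.9, 134.7 and 128.0 in knockdown cells. It rose by 0.17 (adjusted p = 0.0272), a call that log2(TPM + 1) values did not give (0.08, adjusted p = 0.624). Psma5 had a log2 fold change of 0.30 but did not pass the threshold (adjusted p = 0.057), and Psma3 and Psma4 were at 0.07 and 0.06. Psma5 passed with DESeq2 (adjusted p = 0.00437) and with the length or GC trend removed (0.0248 and 0.0263). It did not pass on log2(TPM + 1) values (0.0773). Psma3 and Psma4 passed with the GC trend removed (0.0124 and 0.0298) but not with DESeq2 (0.457 and 0.493). Over 6 libraries the sign turned for Psma1 (-0.11), Psma2 (-0.44) and Psma6 (-0.27), with adjusted p = 0.598 or more in edgeR.

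Psma7 ran against its ring. It encodes an alpha subunit of the constitutive 20S particle and lies on chromosome 2 of GRCm38, from 180036374 to 180042433 (ENSMUSG00000027566). It stood at 616.9, 220.4 and 218.4 CPM in the WT libraries and at 154.1, 163.1 and 161.4 CPM in the knockdown libraries. Every knockdown library was below every WT library. Without WT replicate 1 the means were 219.4 ± 1.43 CPM (SD, n = 2) and 159.5 ± 4.75 CPM (SD, n = 3). EdgeR gave a log2 fold change of -0.48 with an SE of 0.0477 (adjusted p = 5.92e-05). With all libraries the log2 fold change was -1.14 (adjusted p = 0.288), and it was -0.65 (adjusted p = 0.0477) with each library's trend by gene length removed. The deposited TPM values for Psma7 fell from a mean of 484.3 in WT replicates 2 and 3 to 358.7 in knockdown cells.

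The beta subunits had 3 of 8 tested genes higher and 0 lower, and all 8 had a positive sign without WT replicate 1 (median 0.23). Psmb4, a structural subunit of the inner rings, was at 135.4 and 144.2 CPM in WT replicates 2 and 3, 607.1 in WT replicate 1, and 265.0, 210.4 and 217.5 in the knockdown libraries. Its log2 fold change of 0.71 (SE 0.101, adjusted p = 0.00302) was the largest of the members called, and knockdown replicate 1 was the highest of its group. Psmb3, also structural, was at 243.5 CPM in both WT replicates 2 and 3, 797.1 in WT replicate 1, and 301.1, 326.3 and 326.6 in knockdown cells (log2 fold change 0.37, adjusted p = 4.6e-04). Psmb1 and Psmb2 were at 0.03 and 0.09 and were not called. Over 6 libraries Psmb4 was at -0.36 (adjusted p = 0.783) and Psmb3 at -0.43 (adjusted p = 0.674).

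Of the 3 constitutive catalytic subunits, Psmb5 was called and the others were not. Psmb5, which carries the chymotrypsin-like site that proteasome inhibitors in the clinic target, was at 57.1 and 51.9 CPM in WT replicates 2 and 3, 153.9 in WT replicate 1, and 75.1, 79.4 and 87.8 in knockdown libraries. The resulting log2 fold change was 0.55 (SE 0.0794, adjusted p = 7.55e-04). Psmb6, with the caspase-like site, was at 166.1 and 163.3 CPM in WT replicates 2 and 3, 464.5 in WT replicate 1, and 174.6, 207.0 and 215.9 in knockdown cells (0.26, adjusted p = 0.0931). Psmb7, with the trypsin-like site, was at 183.4 and 193.3 CPM, 549.4 in WT replicate 1, and 196.3, 223.5 and 232.4 in knockdown cells (0.19, adjusted p = 0.0922). For all 3 genes the knockdown libraries exceeded WT replicates 2 and 3 without overlap, by the smallest margin in knockdown replicate 1, and stayed below WT replicate 1. Psmb6 and Psmb7 passed the threshold with each library's length trend removed (adjusted p = 0.00256 and 0.0347). Over 6 libraries Psmb5, Psmb6 and Psmb7 were at -0.12, -0.41 and -0.51, with adjusted p = 0.587 or more.

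The inducible catalytic subunits, which replace the constitutive ones in the immunoproteasome, were low. Psmb10 was at 13.9 and 10.5 CPM in WT replicates 2 and 3, 32.2 in WT replicate 1, and 12.9, 14.4 and 14.1 in knockdown cells, with overlapping groups (log2 fold change 0.17, adjusted p = 0.359, and -0.45 over 6 libraries). Psmb8 and Psmb9, left out of the members, had at most 3.71 and 0.764 CPM in any library and were not called (adjusted p = 0.125 and 0.199). At these low counts their log2 fold changes were 0.61 and 1.23, and -0.13 and 0.10 over 6 libraries. In both genes all knockdown libraries were above WT replicates 2 and 3, a placement held by 30.4% of all genes.

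The 6 ATPases of the 19S particle, which form the ring that unfolds substrates, had 5 genes that rose, by 0.25 to 0.42 on the log2 scale, and 0 that fell. Psmc1 was at 230.2 and 243.0 CPM in WT replicates 2 and 3, 428.4 in WT replicate 1, and 319.4, 321.1 and 317.5 in the knockdown libraries. Its log2 fold change was 0.42 (SE 0.0444, adjusted p = 8.61e-05). Psmc3 was at 287.2 and 284.9 CPM, 517.0 in WT replicate 1, and 345.9, 370.0 and 373.1 in knockdown cells (0.33, adjusted p = 7.38e-04). In both the knockdown libraries stood above WT replicates 2 and 3 and below WT replicate 1. Psmc4 rose by 0.33, and Psmc2 and Psmc5 by 0.25 each. Psmc2 was at 179.3 and 176.7 CPM, 375.2 in WT replicate 1, and 209.2, 216.5 and 217.5 in knockdown cells, and Psmc5 at 244.4 and 244.2, 474.8, and 283.3, 297.0 and 299.9. Psmc6 alone was not called, at 0.03 (adjusted p = 0.646), although it was with the trend by GC content removed (adjusted p = 0.00588). Over 6 libraries Psmc1 was at 0.09, Psmc3 at 0.00, and Psmc2, Psmc4, Psmc5 and Psmc6 at -0.19, -0.12, -0.13 and -0.16, none of them called in edgeR.

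Of the 11 other subunits of the 19S particle, 7 rose and 1 fell, with a median log2 fold change of 0.21. Psmd4, a receptor for ubiquitin chains, was at 203.8 and 199.7 CPM in WT replicates 2 and 3, 389.7 in WT replicate 1, and 283.4, 294.2 and 294.3 in knockdown cells. Its log2 fold change of 0.51 (SE 0.0462, adjusted p = 3.24e-05) had the smallest p of the members. Psmd11, a scaffold subunit of the lid, was at 159.1, 166.4 and 163.4 CPM in WT replicates 1, 2 and 3 and at 216.4, 218.3 and 219.6 in the knockdown libraries (0.39, SE 0.0443, adjusted p = 1.27e-04). The lid subunit gene Psmd3 was at 405.6, 357.2 and 345.5 CPM in WT and 531.8, 461.6 and 466.1 in knockdown cells (0.45), and Psmd2, the large scaffold of the base, at 570.1, 578.8 and 585.1 and at 670.0, 710.3 and 656.6 (0.21, adjusted p = 0.00639). These 3 genes were the subunits of the 19S particle in which all knockdown libraries exceeded all WT libraries. Over 6 libraries Psmd11, Psmd3 and Psmd2 were at 0.42, 0.40 and 0.23 (adjusted p = 0.196, 0.282 and 0.433 in edgeR), and Psmd4 at 0.14.

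**Figure D4:**
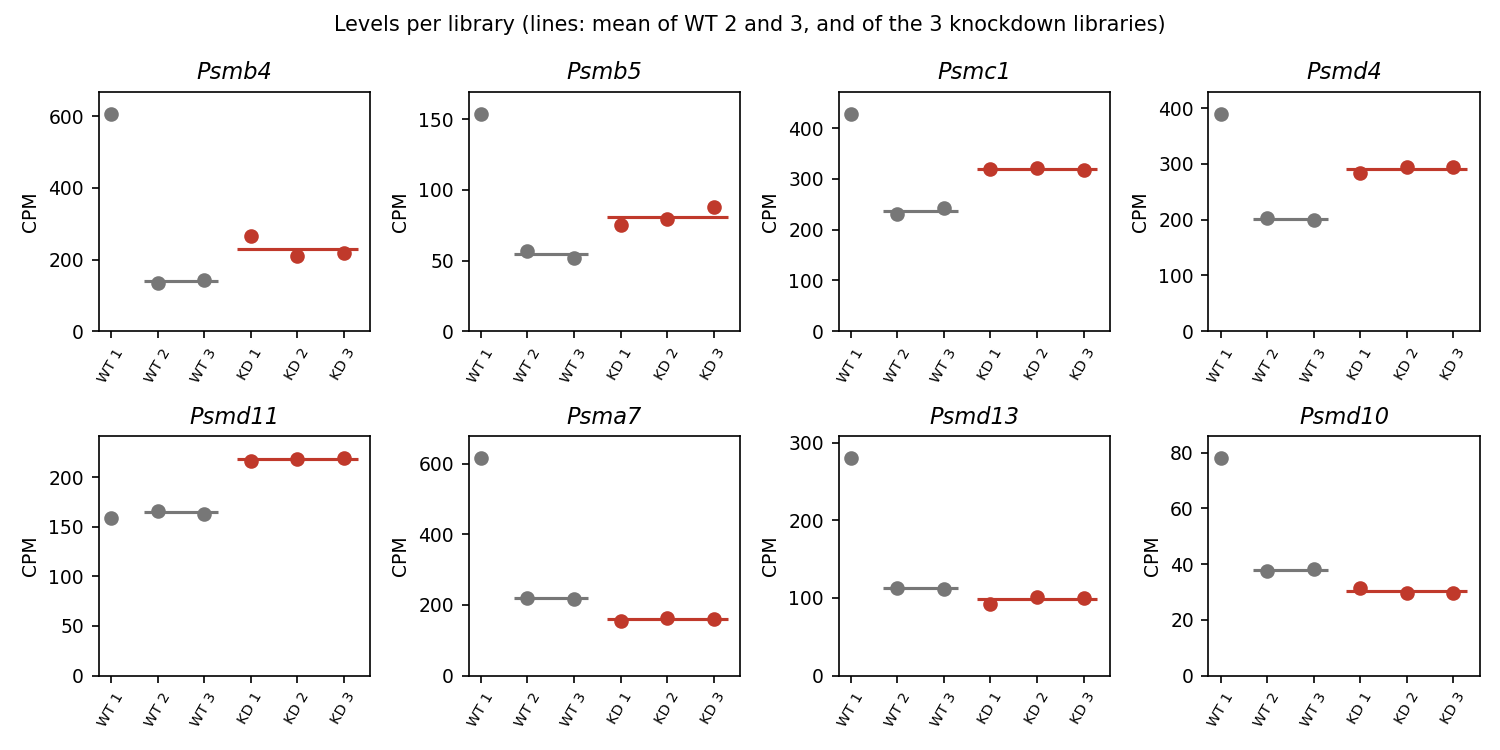
Each panel shows the CPM of 1 gene in the 3 WT (grey) and 3 knockdown (red) libraries, with lines at the mean of WT replicates 2 and 3 and of the knockdown libraries. Psmd11 is higher and Psma7, Psmd13 and Psmd10 are lower in every knockdown library than in every WT library, and WT replicate 1 is the highest library in all genes shown but Psmd11.

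The other lid genes varied, as did Psmd1, which is outside the lid. Psmd6 was at 52.9 and 55.6 CPM in WT replicates 2 and 3, 121.2 in WT replicate 1, and 99.0, 73.8 and 73.0 in knockdown cells, with knockdown replicate 1 the highest of its group. Its log2 fold change of 0.58 (SE 0.153) passed narrowly (adjusted p = 0.0455) and not with the size factors of DESeq2 (adjusted p = 0.0532). Psmd7 rose by 0.30 and Psmd12, at 208.9 and 203.1 CPM, 390.6 in WT replicate 1 and 240.2, 238.1 and 239.2 in knockdown cells, by 0.20. Psmd14, the enzyme that cuts ubiquitin chains off the substrate, was at 0.13 (adjusted p = 0.081), and Psmd1 and Psmd8 were at -0.03 and 0.01. Psmd13, another lid subunit, fell by 0.21 on the log2 scale, with 280.2, 113.1 and 111.8 CPM in WT and 92.5, 101.1 and 100.3 in knockdown libraries (adjusted p = 0.0152). All knockdown libraries were below all WT libraries for Psmd13, but its log2(TPM + 1) value had the other sign (0.01, adjusted p = 0.892), and over 6 libraries its log2 fold change was -0.78 (adjusted p = 0.377). Psmd6 was then at 0.10, and Psmd7 and Psmd12 at -0.15 and -0.16.

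Among the 6 regulators other than the 19S particle, 0 were called higher and 1 lower without WT replicate 1. Of all genes tested, 16.3% were called higher and 18.0% lower. Psme1 and Psme2, the 11S subunits induced by interferon gamma, were at 61.3 and 64.1 and at 46.5 and 48.1 CPM in WT replicates 2 and 3. They were at 142.0 and 184.0 CPM in WT replicate 1. In knockdown replicates 1, 2 and 3 Psme1 was at 61.6, 65.5 and 68.5 CPM and Psme2 at 47.0, 54.2 and 55.8, so that both overlapped the WT range (log2 fold changes 0.04 and 0.13, adjusted p = 0.663 and 0.248). Psme3, the nuclear 11S subunit, was at 195.6, 211.6 and 215.0 CPM in WT and 257.1, 224.7 and 234.7 in knockdown libraries, higher in each (0.15, adjusted p = 0.0619). Psmf1, which encodes the regulator PI31, was at 33.0, 35.9 and 35.2 CPM in WT and 38.7, 37.8 and 38.9 in knockdown cells (0.10, adjusted p = 0.269).

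Psme4, which encodes the nuclear cap PA200, fell. WT libraries held 168.6, 208.4 and 215.4 CPM and knockdown libraries 181.8, 189.8 and 168.9. The knockdown libraries were below WT replicates 2 and 3 but not below WT replicate 1. The log2 fold change was -0.25 (SE 0.0535, adjusted p = 0.00472), and it was -0.13 (adjusted p = 0.079) with the GC trend removed. Psme2b, a copy close to Psme2 in sequence, had at most 1.18 CPM and overlapping groups (0.89, adjusted p = 0.32). Counts of Psme2 and Psme2b were not whole numbers in 5 libraries each, so reads shared between them may have been divided. Over 6 libraries Psme1 and Psme2 were at -0.45 and -0.83, Psme3 and Psmf1 at 0.20 and 0.15, Psme2b at 1.40 and Psme4 at -0.13 (adjusted p = 0.668), none of them called in edgeR.

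Assembly chaperones moved in both directions, with 3 of 7 higher and 1 lower, beside 16.3% higher and 18.0% lower among all genes. Those of the 19S base split: Psmd5 and Psmd9 rose and Psmd10, which encodes gankyrin, fell. Psmd5 was at 78.1 and 82.6 CPM in WT replicates 2 and 3, 152.8 in WT replicate 1, and 104.9, 103.5 and 94.1 in knockdown cells (0.31, adjusted p = 0.00235), a call not given by log2(TPM + 1) values (0.29, adjusted p = 0.508). Psmd9 was at 30.5 and 26.3 CPM, 49.8 in WT replicate 1, and 37.6, 36.5 and 39.0 in knockdown cells (0.40, adjusted p = 0.00389), also not called on log2(TPM + 1) values (adjusted p = 0.0913). Psmd10 was at 78.1, 37.5 and 38.1 CPM in WT and 31.4, 29.5 and 29.8 in knockdown libraries, below WT in each. Its log2 fold change was -0.34 (SE 0.067, adjusted p = 0.00308), and -0.76 over 6 libraries (adjusted p = 0.313), where Psmd5 and Psmd9 were at -0.05 and 0.09.

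The chaperones of the core gave 1 call in 4. Psmg4 was at 3.59 and 3.86 CPM in WT replicates 2 and 3, 8.68 in WT replicate 1, and 6.17, 5.42 and 5.09 in knockdown cells (0.56, adjusted p = 0.0239), and was not called by DESeq2 (adjusted p = 0.0555) or with the GC trend removed (adjusted p = 0.057). Psmg1, its partner Psmg2 and Psmg3 were at -0.27, -0.11 and 0.04 without a call. Psmg1 was nevertheless lower in every knockdown library (22.4, 24.8 and 27.8 CPM) than in any WT library (92.7, 29.4 and 30.3), with adjusted p = 0.0556. Of the partners matched by name, Psme3ip1 rose by 0.28 (adjusted p = 0.018) and Psmc3ip was at 0.02. Over 6 libraries Psmg1, Psmg2 and Psmg3 were at -1.02, -0.95 and -0.63, Psmg4 at 0.05, Psme3ip1 at 0.08 and Psmc3ip at -0.58, none of them called in edgeR.

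Levels per length differed widely among subunits that share the particle in equal number. Among the 14 constitutive core subunits, Psma2 was the lowest and Psmb3 the highest in all 6 libraries, at 69.7 and 686.1 TPM in WT replicate 2 and at 81.2 and 938.0 TPM in knockdown replicate 2. The median over these subunits was 261.6 and 266.3 TPM in WT replicates 2 and 3 and 281.5 to 304.7 in knockdown libraries. The 17 genes of the 19S particle had medians of 170.5 and 177.6 TPM in WT replicates 2 and 3 and 201.9 to 211.7 in knockdown libraries. Over the 47 members the log2 fold change without WT replicate 1 had Spearman correlations of -0.13 with length, 0.15 with GC content and 0.14 with level, over genes that share libraries. In 17 of the 49 members a library held a count that was not whole, among them Psma3, Psmb7, Psmc2, Psmd4, Psmd11 and Psme3 in all 6 libraries, and reads of these genes may have been divided with similar sequences.

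Promoters of the members were searched for the core of the antioxidant response element, the kind of site that NRF1 and NRF2 bind, and for the NF-Y box. RefSeq promoters on GRCm38.p6, from 250 bases before to 50 after the start, were found for 41 of the 49 genes (45 promoters). TGANNNNGC, on either strand, occurred in 55.6% of the members' promoters and in 41.3% of all 32851. The longer TGACNNNGC, every match of which is also a match of the first, occurred in 13.3% and 12.4%, and CCAAT in 33.3% and 37.4%. The shares of the longer element and of CCAAT thus differed little from those of all promoters. All 6 members with a TGACNNNGC match are shown, since 3 of them rose, 2 were not called and 1 fell, each 5′ to 3′ on the strand of the gene with the motif, or its reverse complement, in capitals. They lie at chr14:54618023-54618052 (minus strand) for Psmb5, chr11:70525338-70525367 (plus) for Psmb6, chr14:45329587-45329616 (plus) for Psmc6, chr11:107479278-107479307 (plus) for Psmd12, chr5:123228149-123228178 (plus) for Psmd9 and chr11:30771758-30771787 (plus) for Psme4.
Psmb5: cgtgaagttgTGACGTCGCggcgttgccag
Psmb6: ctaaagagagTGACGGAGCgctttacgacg
Psmc6: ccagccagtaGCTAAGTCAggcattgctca
Psmd12: tctGCTGTGTCAcatttgcccccctcagac
Psmd9: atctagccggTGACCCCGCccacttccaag
Psme4: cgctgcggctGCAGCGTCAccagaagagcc

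The 3′ UTRs were searched for GAACTAC and AACTACA, overlapping 7-base sequences that earlier work on these same fold changes had picked out in genes lower in knockdown cells. Of 45 members whose 3′ UTR in GENCODE M21 reached 50 bases, 1 held one, Psmd10, against 11.9% of the 12348 genes tested. The match is in exon 5 of 5, at chrX:140948730-140948759 on the minus strand of GRCm38, and is shown because Psmd10 is among the 4 members that fell, with the 7 bases in capitals. Psma7, Psmd13 and Psme4, which also fell, held neither sequence in the longest annotated UTR of a coding transcript.
Psmd10: tcttttttttcAACTACAaggttaatttat

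Partners of the proteasome that are named outside the Psm series were read from lists written with earlier results of these data known. Of 11 such genes tested, 2 rose and 4 fell without WT replicate 1, beside 16.3% higher and 18.0% lower among all genes. Adrm1, the ubiquitin receptor of the 19S particle beside Psmd4, was at 106.0, 98.4 and 94.8 CPM in WT and 198.5, 171.8 and 178.5 in knockdown libraries. This log2 fold change of 0.90 (SE 0.0617, adjusted p = 7.28e-06) exceeded that of any member called, and over 6 libraries it was 0.87 and did not pass in edgeR (adjusted p = 0.095). Over 6 libraries Adrm1 passed with DESeq2 (adjusted p = 6.87e-06) and with the length trend removed (0.0274). It did not pass with the GC trend removed (0.127) or on log2(TPM + 1) values (0.246). The thioredoxin-like Txnl1, which docks on the 19S particle, rose by 0.45. Ube3c, a ubiquitin ligase bound to the proteasome, fell by 0.46 on the log2 scale, the adaptor Ecpas by 0.41, Akirin2 by 0.23 and Ipo9 by 0.20, the last 2 known for the import of proteasomes into the nucleus. The call of Akirin2 (adjusted p = 0.0477) was lost with DESeq2 (0.108), with the GC trend removed (0.127) and on log2(TPM + 1) values (0.117), and on the latter those of Txnl1, Ecpas and Ipo9 were lost too (adjusted p = 0.137, 0.218 and 0.307). Over 6 libraries edgeR called none of these 11 genes, and Txnl1 was at 0.09, Ube3c at -0.27, Ecpas at -0.30, Akirin2 at -0.66 and Ipo9 at 0.06. With the length trend removed Ube3c also passed (-0.42, adjusted p = 0.0366). Pomp, the maturation factor of the core, was at 87.1 and 91.6 CPM in WT replicates 2 and 3, 278.9 in WT replicate 1, and 88.0, 100.6 and 105.9 in knockdown cells (0.12, adjusted p = 0.299).

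Nfe2l1 itself was called lower without WT replicate 1, and the sign turned with that library. WT libraries held 264.7, 462.9 and 457.4 CPM and knockdown libraries 403.4, 410.6 and 421.0. The log2 fold change was -0.18 without WT replicate 1 (adjusted p = 0.0107) and 0.06 over 6 libraries (adjusted p = 0.909). Of the 9 genes listed for this axis, 3 rose, 2 fell and 4 were not called, beside 16.3% higher and 18.0% lower among all genes. Ddi2, the protease that cleaves NRF1, rose by 0.20, Vcp, the segregase, by 0.26 and Syvn1, a ligase of the endoplasmic reticulum, by 0.63. For these 3 genes every knockdown library was above every WT library, a placement held by 18.7% of all genes. Nfe2l2 was at 0.02 (adjusted p = 0.758) and Ngly1, which removes sugars from NRF1, at -0.14 (adjusted p = 0.139), and the NRF1 ligase gene Btrc fell by 0.35 on the log2 scale. On log2(TPM + 1) values the calls of Nfe2l1, Ddi2 and Btrc were lost (adjusted p = 0.232, 0.159 and 0.275), and over 6 libraries edgeR called no gene of the axis. Syvn1, at 0.79 over 6 libraries (adjusted p = 0.146 in edgeR), passed with DESeq2 (0.0159) and with the length trend removed (0.0257). It did not pass with the GC trend removed (0.24) or on log2(TPM + 1) values (0.398).

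Ubiquitin shuttles and ubiquitin genes were divided. Among the shuttle genes, Zfand2a rose by 0.62 and Ubqln4 by 0.29 on the log2 scale, and Zfand6 fell by 0.33. Their adjusted p was 8.53e-05, 0.00124 and 0.00196 without WT replicate 1. Zfand2a, a heat-inducible factor that binds the proteasome, was at 22.7, 33.4 and 34.8 CPM in WT and 55.0, 54.2 and 49.9 in knockdown libraries. Over 6 libraries Zfand2a was at 0.81, Ubqln4 at 0.37 and Zfand6 at -0.60, none called in edgeR (adjusted p = 0.157, 0.254 and 0.292). Zfand2a then passed with DESeq2 (0.0264) and with the length trend removed (0.0366). It did not pass with the GC trend removed (0.211) or on log2(TPM + 1) values (0.462). Among the genes that encode or activate ubiquitin, Ubb rose by 0.33 (adjusted p = 0.00143) and the activating enzyme gene Uba6 fell by 0.33 on the log2 scale (adjusted p = 0.00214). Ubb was at 1205 and 1157 CPM in WT replicates 2 and 3, 2577 in WT replicate 1 and 1410.4 to 1577 in knockdown cells, so WT replicate 1 again stood above the knockdown libraries. The call of Uba6 was lost with the GC trend removed (adjusted p = 0.0638) and on log2(TPM + 1) values (0.186), and over 6 libraries Ubb was at -0.13 and Uba6 at -0.02, neither called in edgeR.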

How the data were processed

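Expression was measured by RNA sequencing in 3 WT and 3 ACSL5 knockdown libraries. Per the submitters' processing notes the tools were StringTie, HISAT2, fastp and DESeq2, without versions or roles, and the builds hg38 and GRCh38, which are human, although the gene identifiers are murine. Which tool made the counts and whether strand was used is not stated there or in the labels. The authors deposited expected counts per gene, of which 10.1% to 13.0% in a library are not whole, and TPM values that sum to 999999 to 1000001. Per the file headers each table also gives gene lengths, here in bases.

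Expected counts were rounded to whole numbers, filtered with filterByExpr, scaled by TMM and compared with edgeR 4.0.16 (quasi-likelihood F test, robust, two-sided) in R 4.3.3, with Benjamini-Hochberg adjustment over all genes tested and a call at 0.05. Standard errors were derived from the F statistic. Levels are CPM with TMM factors of the 6 libraries. The fit was repeated without WT replicate 1. Alternatives were other scalings and filters, DESeq2 1.42.0, limma 3.58.1 (voom, and log2(TPM + 1) or log2(TPM + 0.1) where a group averaged 1 TPM or more), a replicate block, libraries left out, and removal of each library's lowess trend (span 0.3) with length or GC content, known from GENCODE M21 for 96.3% of genes. Library quality weights and the TGACNNNGC search were added after the data were examined. The scripts were tested on simulated data.

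The members, the lists and the fit without WT replicate 1 were chosen with earlier results of these data known. Values in every library are given for Psmb5, Psmb6, Psmb7, Psmb10, Psme1 to Psme4, Psmf1 and, in each group, the 2 highest and 2 lowest fold changes among genes called without WT replicate 1; other genes were named after their values were seen. Some genes of the lists outside the members are not reported here.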

Additional observations from a re-analysis of the deposited data

How the results depend on the processing

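The number of members called over 6 libraries, 0 in edgeR, was 1 with DESeq2, 3 with the length trend removed, 2 with length and GC trends removed and 26 with library quality weights, and ran from 0 to 26 when a library was left out. Without WT replicate 1, the 22 higher calls ran from 14 to 29 and the 4 lower calls from 2 to 5 with a further library left out, and both pseudocounts on TPM gave 2 lower calls.

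The core median over 6 libraries (-0.44) was -0.01 with the length trend removed, 0.04 with both trends removed, 0.05 on TPM with either pseudocount and 0.24 with quality weights, and ran from -0.69 to 0.19 over left-out libraries. That of the 19S particle (-0.12) was 0.15 with the length trend removed, 0.13 with both removed, 0.04 with library totals, 0.27 with quality weights and 0.27 on TPM with either pseudocount, where all genes tested had medians of 0.26 and 0.30, and ran from -0.26 to 0.25. Without WT replicate 1 the core median (0.19) was 0.32 with the GC trend removed, 0.29 with both trends removed, 0.26 on TPM with either pseudocount, 0.24 with quality weights or no filter, and 0.18 to 0.28 over left-out libraries. The 19S median (0.25) was 0.26 with DESeq2 or its size factors, 0.27 with the stricter filter, no filter or quality weights, 0.28 on TPM with either pseudocount, 0.29 with library totals, 0.23 with the length trend removed, 0.22 with both trends removed and 0.25 to 0.29 over left-out libraries. The cause of these shifts was not tested.

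Signs turned without WT replicate 1 for Psmb10 (-0.01 with both trends removed, -0.03 to 0.38 over left-out libraries, negative without WT replicate 3), Psme1 (-0.09 with the GC trend removed, -0.13 with both) and Psmd13 (0.01 on TPM with either pseudocount).

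Acsl5 over 6 libraries (log2 fold change -2.43, adjusted p = 0.0619 in edgeR) passed the threshold with DESeq2 (-2.44), the length trend removed (-2.60), both trends removed (-2.54), library totals (-2.31), voom (-2.43), quality weights (-2.28), no filter (-2.40) and no robust estimation (-2.43), and ran from -2.50 to -2.32 over left-out libraries.

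The labels do not say whether replicate numbers pair the libraries. Deviations of same-numbered libraries from their group means correlated at -0.16, 0.07 and -0.28. With WT replicate 1 apart from the other WT libraries, these correlations cannot decide the question. With a replicate block, 0 members were called over 6 libraries, and 26 higher and 4 lower without WT replicate 1, with medians of 0.27 for the core and 0.28 for the 19S particle.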
